A study of Mus musculus with 27 samples.

Results

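The 46 genes described here are the genes of the G2 phase and of mitosis, taken by symbol from the deposited table of read counts of a study of thyroid hormone and adrenergic signalling in the newborn mouse heart. Each of the 46 symbols matched 1 of the 51826 genes in the table, and all 46 were among the 19119 genes with enough reads to be tested. RNA was sequenced in 27 libraries, 1 per whole heart, from CD-1 mice 14 days after birth, in 9 groups of 3 hearts. Mothers of the PTU groups ate chow with 0.15% propylthiouracil, a blocker of thyroid hormone synthesis, in an iodine-deficient diet from E13.5 of gestation. Pups received daily injections under the skin from postnatal day 1: phenoxybenzamine (PHE, an alpha-adrenergic blocker, 10 ug per g), propranolol (PRO, a beta-adrenergic blocker, 20 ug per g), both, or saline. Sequencing set A held PHE, PHE+PRO, PTU+PHE, PTU+PHE+PRO and saline, and set B held PRO, PTU, PTU+PRO and a saline group of its own. The labels name no injection for the PTU group and no altered gene for any group. The litter of each heart is not given, so litter and PTU cannot be told apart, and the p-values measure the spread between these hearts.

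Cells enter mitosis when cyclin-dependent kinase 1, bound to cyclin A or cyclin B, is switched on by CDC25 phosphatases. The kinases Plk1 and Aurora A then help to build the spindle, the checkpoint proteins hold anaphase back until every kinetochore has caught microtubules, and the anaphase-promoting complex with Cdc20 marks cyclin B and securin for destruction. Most of these genes are transcribed as cells go through G2, driven by the MuvB complex with B-Myb (Mybl2) and FoxM1, and are held silent in resting cells. In mice, heart muscle cells go through a last round of DNA synthesis and mostly stop dividing in the days after birth, while endothelial cells, fibroblasts and blood cells of the heart can still divide. A whole-heart library mixes all of these cells, and more cells in cycle cannot be told apart from more RNA per cell.

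Promoter sequence is shown for 8 genes so that the letters shared by this gene class can be seen beside the responses given further on. RefSeq windows of build GRCm38.p6 were found for 40 of the 46 genes (not for Foxm1, Tpx2, Dlgap5, Ccna2, Smc4 and Cdc25c). The 150 bases before the RefSeq start are printed 5′ to 3′ on the strand of the gene. Much of the window of Bub3, Cenpa and Ccnb1, and a part for Cdk1, Cdc20 and Ube2c, lies inside the GENCODE gene model. Those letters may be transcribed rather than upstream. Capitals mark the CCAAT box, bound by NF-Y and read as CCAAT or its other strand ATTGG. They also mark the cell cycle homology region (CHR), which MuvB complexes bind, read as TTTGAA (or TTCAAA on the other strand) and as TTCGAA. The positions are chr10:69352913-69353062 on the minus strand for Cdk1, chr13:100786487-100786636 minus for Ccnb1, chr9:70421555-70421704 minus for Ccnb2, chr4:118437344-118437493 minus for Cdc20 and chr2:164769779-164769928 plus for Ube2c. They are chr11:99024190-99024339 minus for Top2a, chr7:131560220-131560369 plus for Bub3 and chr5:30666736-30666885 plus for Cenpa.
Cdk1: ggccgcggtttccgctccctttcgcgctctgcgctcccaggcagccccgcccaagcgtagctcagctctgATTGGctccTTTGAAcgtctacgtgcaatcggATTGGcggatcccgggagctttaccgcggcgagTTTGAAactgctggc
Ccnb1: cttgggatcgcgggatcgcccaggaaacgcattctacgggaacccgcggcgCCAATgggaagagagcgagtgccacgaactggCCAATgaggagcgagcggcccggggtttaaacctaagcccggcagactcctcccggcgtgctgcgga
Ccnb2: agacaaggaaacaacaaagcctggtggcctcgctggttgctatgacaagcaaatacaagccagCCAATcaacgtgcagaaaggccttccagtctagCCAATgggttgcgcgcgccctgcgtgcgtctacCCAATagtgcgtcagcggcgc
Cdc20: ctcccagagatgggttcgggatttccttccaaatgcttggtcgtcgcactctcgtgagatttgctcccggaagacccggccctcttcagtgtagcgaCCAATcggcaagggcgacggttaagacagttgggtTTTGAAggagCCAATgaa
Ube2c: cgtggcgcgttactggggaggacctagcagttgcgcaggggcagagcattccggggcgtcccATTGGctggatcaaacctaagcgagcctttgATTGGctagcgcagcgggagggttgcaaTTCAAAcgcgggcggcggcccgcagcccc
Top2a: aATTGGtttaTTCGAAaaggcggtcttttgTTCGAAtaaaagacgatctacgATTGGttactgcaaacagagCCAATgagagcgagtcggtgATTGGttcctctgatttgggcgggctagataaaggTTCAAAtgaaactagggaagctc
Bub3: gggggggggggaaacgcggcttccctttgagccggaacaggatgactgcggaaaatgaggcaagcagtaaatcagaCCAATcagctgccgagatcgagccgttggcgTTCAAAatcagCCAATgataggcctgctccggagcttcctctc
Cenpa: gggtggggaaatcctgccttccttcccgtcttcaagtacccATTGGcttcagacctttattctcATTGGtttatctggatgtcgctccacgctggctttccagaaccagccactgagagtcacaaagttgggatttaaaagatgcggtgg

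In the 250 bases before the start, 30 of the 40 genes (75%) held at least 1 CCAAT box on either strand, against 34.5% of 27025 RefSeq windows of the same length. At least 2 boxes were found in 20 of the 40 genes (50%) and in 10.5% of all windows. A CHR stood in 15 of the 40 genes (37.5%) and in 17.4% of all windows, and CHR and CCAAT together in 14 (35%) and 6.21%. Cdk1 and Bub3 each held a CHR and at least 2 CCAAT boxes in this window, and Cenpa and Ccnb1 held 2 CCAAT boxes with no match to the CHR. A match describes letters only, and a missing match says nothing about the factor.

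Libraries held 30791885 to 78913915 reads assigned to genes, of which 14530 to 60079 fell on the 46 genes, so the median library gave 208 reads for Ccnb1, 541 for Cdk1 and 2625 for Cenpa. Heart muscle markers (6 genes) summed to 23590 to 86050 counts scaled to 1e6 reads (CPM, with TMM library scaling) per library, so genes of heart muscle were abundant in all 27. Of the 3 PHE+PRO libraries, 2 carry the same header, that of heart 2, and were kept as separate hearts. By Xist and Y-linked reads, saline hearts 1 and 2 of each set were male and saline heart 3 was female, and the 3 PHE hearts were all male. Same-numbered saline hearts of the 2 sets deviated together from their group means (correlation across 10799 genes of 0.882 to 0.922, against -0.661 to -0.046 for hearts with different numbers), and the labels do not say whether they are different animals. Saline heart 3 had the lowest level of the 3 saline hearts for 44 of the 46 genes in set A (not for Cenpf and Smc4) and for 45 of 46 in set B (not for Cenpf). Results that rest on it are given with and without it.

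Combined loss of thyroid hormone synthesis and adrenergic signalling was examined in set A. Against saline hearts of set A, 44 of the 46 genes were higher and 1 was lower in PTU+PHE+PRO hearts (edgeR quasi-likelihood test, Benjamini-Hochberg adjusted p under 0.05), while 28.7% of all genes tested were called higher and 26% lower. In PTU+PHE hearts 43 of the 46 were higher and 1 was lower, where 28.2% of all genes were called higher and 25.2% lower. The median log2 fold change of the 46 was 1.78 in PTU+PHE+PRO and 1.46 in PTU+PHE, and that of all genes was 0.04 in each. The 3 treated hearts lay wholly above the 3 saline hearts for 44 genes in PTU+PHE+PRO (28.2% of all genes) and for 42 in PTU+PHE (29.8% of all genes). When each library was left out in turn, 43 to 44 genes were called higher in PTU+PHE+PRO and 41 to 44 in PTU+PHE, with 43 and 41 in the fits without saline heart 3. Both comparisons share the saline hearts.

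The kinase at the centre, Cdk1 (ENSMUSG00000019942, GRCm38 chr10:69335146-69352938), had 29.5, 48.2 and 35.6 CPM in PTU+PHE+PRO hearts and 31.2, 27.1 and 33.0 CPM in PTU+PHE hearts, against 9.14, 8.03 and 4.31 CPM in saline hearts. All 6 PTU hearts were above all 3 saline hearts, with no overlap. The rise was 2.40 ± 0.25 on the log2 scale in PTU+PHE+PRO (SE, n = 3 hearts per group, edgeR adjusted p = 4.6e-08) and 2.09 ± 0.25 in PTU+PHE (adjusted p = 3.7e-07). Cyclin B1 (Ccnb1), which activates Cdk1 and carries it into the nucleus, had 14.7, 17.3 and 16.0 CPM in PTU+PHE+PRO and 20.2, 16.0 and 16.7 CPM in PTU+PHE, against 4.04, 4.09 and 2.00 CPM in saline. Its lowest PTU heart was several times above its highest saline heart. Ccnb2, the other B-type cyclin of the set, had 17.5, 23.6 and 20.9 CPM in PTU+PHE+PRO and 17.1, 19.9 and 22.4 CPM in PTU+PHE, against 5.22, 4.19 and 2.36 CPM in saline. All 8 genes of the Cdk1-cyclin group rose in both treatments, by a median log2 of 2.32 in PTU+PHE+PRO and 2.34 in PTU+PHE. Cdca3, an adaptor for the destruction of the mitotic inhibitor Wee1, rose 8.16-fold in PTU+PHE+PRO and 5.96-fold in PTU+PHE, and Cdc25c, a phosphatase that activates Cdk1, rose 6.33-fold and 6.21-fold. Cdc25b, a phosphatase that starts this activation, rose least of the 8, 2.27-fold in PTU+PHE+PRO and 1.84-fold in PTU+PHE.

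**Figure D1:**
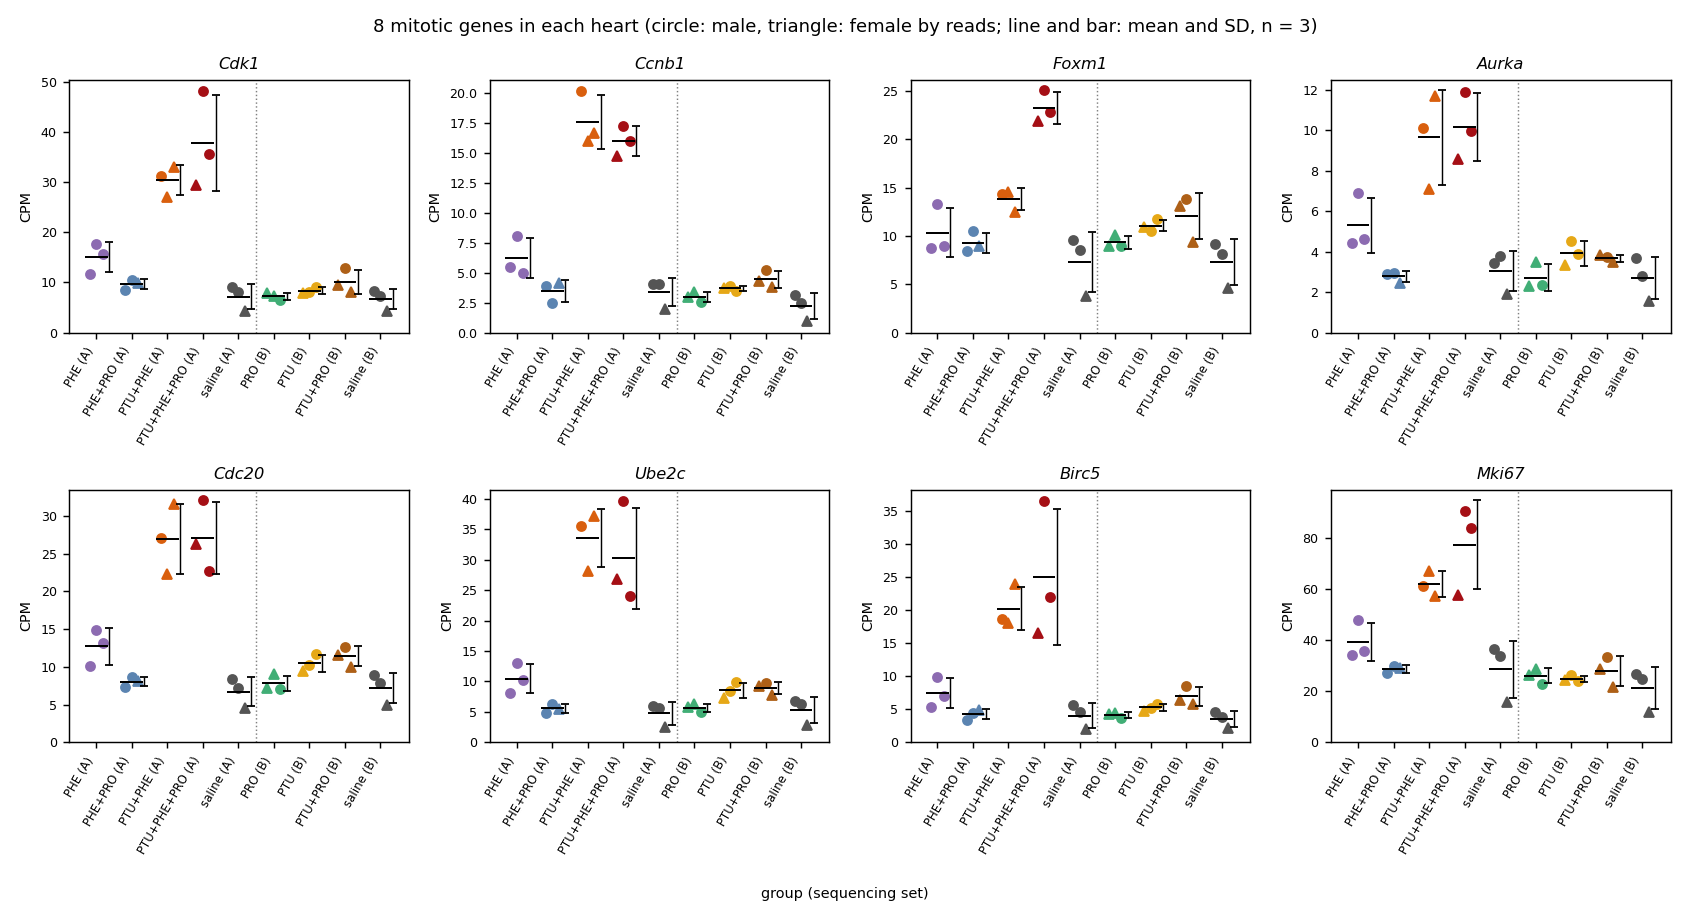
Level of 8 genes in every heart, in CPM (y axis) by group (x axis, sequencing set in brackets, dotted line between the sets). Circles are male and triangles female hearts by their reads, the line is the mean and the bar the SD of 3 hearts. For 7 of the 8 genes every PTU+PHE and PTU+PHE+PRO heart lies above every other heart; for Foxm1 the PTU+PHE hearts, at 12.5 to 14.5 CPM, overlap PTU+PRO and PHE hearts.

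Genes of anaphase onset differed widely from each other. Ube2c, the ubiquitin-conjugating enzyme of the anaphase-promoting complex, had 26.9, 39.6 and 24.1 CPM in PTU+PHE+PRO and 35.5, 28.2 and 37.1 CPM in PTU+PHE, against 6.03, 5.71 and 2.55 CPM in saline. The groups were apart by a wide gap, and the rise was 2.67 ± 0.30 on the log2 scale in PTU+PHE+PRO (adjusted p = 1.3e-07) and 2.82 ± 0.30 in PTU+PHE (adjusted p = 7.8e-08, edgeR). Cdc20, the activator of that complex, had 26.3, 32.1 and 22.7 CPM in PTU+PHE+PRO and 27.1, 22.3 and 31.6 CPM in PTU+PHE, against 8.33, 7.22 and 4.55 CPM in saline. It rose 4.04-fold in PTU+PHE+PRO and 4.03-fold in PTU+PHE. Espl1, the separase that cuts cohesin, stood closer to saline: it had 10.8, 8.65 and 8.18 CPM in PTU+PHE+PRO and 7.17, 7.12 and 6.15 CPM in PTU+PHE, against 6.30, 5.47 and 3.67 CPM in saline. It was called in PTU+PHE+PRO (log2 0.84 ± 0.19, edgeR adjusted p = 0.00061) but not in PTU+PHE (0.41 ± 0.19, adjusted p = 0.071), where 1 heart lay below a saline heart.

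The 4 mitotic kinases rose together in both treatments. Aurka, which ripens centrosomes and spindle poles, had 8.596, 11.9 and 9.97 CPM in PTU+PHE+PRO and 10.1, 7.12 and 11.7 CPM in PTU+PHE, against 3.43, 3.80 and 1.93 CPM in saline. Plk1, which acts from mitotic entry to cytokinesis, had 13.1, 12.8 and 8.42 CPM in PTU+PHE+PRO and 10.3, 7.999 and 11.5 CPM in PTU+PHE, against 5.50, 3.76 and 2.05 CPM in saline. Neither gene overlapped saline in any PTU heart of set A. Aurka rose by 1.74 ± 0.27 and Plk1 by 1.61 ± 0.28 in PTU+PHE+PRO (log2, edgeR adjusted p = 1e-05 and 4.6e-05), and Aurka by 1.66 ± 0.27 and Plk1 by 1.40 ± 0.28 in PTU+PHE (adjusted p = 2e-05 and 0.00022). Nek2, a kinase that parts the centrosomes, rose 3.94-fold in PTU+PHE+PRO and 3.58-fold in PTU+PHE, and Melk 3.82-fold and 2.98-fold.

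Both transcription factors rose in both treatments, and in PTU+PHE both stayed below the median of the 46. Foxm1 had 21.9, 25.1 and 22.8 CPM in PTU+PHE+PRO and 14.4, 14.5 and 12.5 CPM in PTU+PHE, against 9.54, 8.58 and 3.80 CPM in saline. The 3 groups lay in that order with no overlap. Its rise was 1.67 ± 0.25 in PTU+PHE+PRO (log2, edgeR adjusted p = 7.4e-06) and 0.92 ± 0.25 in PTU+PHE (adjusted p = 0.0035). Mybl2 (B-Myb) rose by 1.94 ± 0.25 in PTU+PHE+PRO (adjusted p = 9.3e-07) and 1.07 ± 0.25 in PTU+PHE (adjusted p = 0.00096, edgeR). Set directly against each other, PTU+PHE+PRO exceeded PTU+PHE by 0.75 ± 0.24 for Foxm1 (adjusted p = 0.099) and 0.87 ± 0.24 for Mybl2 (adjusted p = 0.051, edgeR), so neither difference was called.

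Spindle checkpoint genes all rose in both treatments, but Bub3 by little. Bub1, the kinase that recruits the checkpoint to kinetochores, had 5.87, 7.999 and 11.1 CPM in PTU+PHE+PRO and 6.09, 6.52 and 6.06 CPM in PTU+PHE, against 3.32, 2.95 and 1.07 CPM in saline. Bub3, its partner, had 56.9, 66.1 and 53.1 CPM in PTU+PHE+PRO and 50.6, 53.8 and 64.1 CPM in PTU+PHE, against 41.3, 41.9 and 35.8 CPM in saline. Both genes kept treated and saline hearts apart, yet Bub1 rose 3.40-fold and 2.55-fold while Bub3 rose 1.48-fold and 1.42-fold. Bub1b, Ttk and Mad2l1, the other checkpoint genes, rose by 1.63 to 1.82 in PTU+PHE+PRO (log2). The chromosomal passengers Birc5 (survivin) and Cdca8 (borealin), which place Aurora B at centromeres, were among the steepest. Birc5 had 16.5, 36.5 and 21.9 CPM in PTU+PHE+PRO and 18.6, 18.1 and 23.9 CPM in PTU+PHE, against 5.58, 4.53 and 2.02 CPM in saline. That is a 6.19-fold and a 5.01-fold rise (log2 2.63 ± 0.33 and 2.32 ± 0.32, edgeR adjusted p = 6.9e-07 and 3.8e-06).

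Of the 6 kinetochore and centromere genes, 4 rose in both treatments. Ndc80, Nuf2 and Spc25 are subunits of the NDC80 complex, which holds microtubules at the kinetochore, and Cenpe is a kinetochore motor. Spc25 had 9.08, 12.3 and 11.6 CPM in PTU+PHE+PRO and 10.5, 9.65 and 9.604 CPM in PTU+PHE, against 3.02, 2.70 and 1.82 CPM in saline. No treated heart came near a saline heart, and the rise was 2.13 ± 0.21 in PTU+PHE+PRO and 1.98 ± 0.21 in PTU+PHE (log2, edgeR adjusted p = 1.6e-08 and 5.9e-08). Ndc80 and Nuf2 rose by 1.896 and 1.83 in PTU+PHE+PRO and by 1.49 and 1.45 in PTU+PHE, and Cenpe by 1.21 and 1.28. The other two, Cenpa and Cenpf, are described further on.

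All 9 spindle motors and microtubule proteins rose in both treatments, with a median log2 of 1.58 in PTU+PHE+PRO and 1.46 in PTU+PHE. Kif11, the motor that pushes the spindle poles apart, had 12.3, 12.2 and 14.8 CPM in PTU+PHE+PRO and 10.6, 11.7 and 11.4 CPM in PTU+PHE, against 6.37, 6.53 and 3.82 CPM in saline. It had the smallest rise of the 9, at 2.35-fold and 2.02-fold, and Hmmr, a spindle assembly protein, rose 3.83-fold and 4.70-fold. The 6 genes of chromosome structure also rose in both treatments, with a median log2 of 1.25 and 0.88. Mki67, the Ki-67 protein that coats mitotic chromosomes and is used to mark cycling cells, had 57.8, 90.7 and 84.02 CPM in PTU+PHE+PRO and 61.3, 67.4 and 57.4 CPM in PTU+PHE, against 36.4, 33.8 and 15.6 CPM in saline. Top2a, which untangles sister DNA, had 43.4, 44.3 and 50.8 CPM in PTU+PHE+PRO and 34.7, 38.0 and 32.5 CPM in PTU+PHE, against 25.0, 20.6 and 11.9 CPM in saline. Neither gene overlapped saline. Mki67 rose 2.71-fold and 2.17-fold, and Top2a 2.42-fold and 1.83-fold. The condensin subunits Smc2 and Smc4 rose by 0.55 ± 0.16 and 0.64 ± 0.10 in PTU+PHE+PRO (log2, edgeR adjusted p = 0.0063 and 1.5e-05), and the call of Smc2 was lost in 2 of 6 fits that left out a library.

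**Figure D2:**
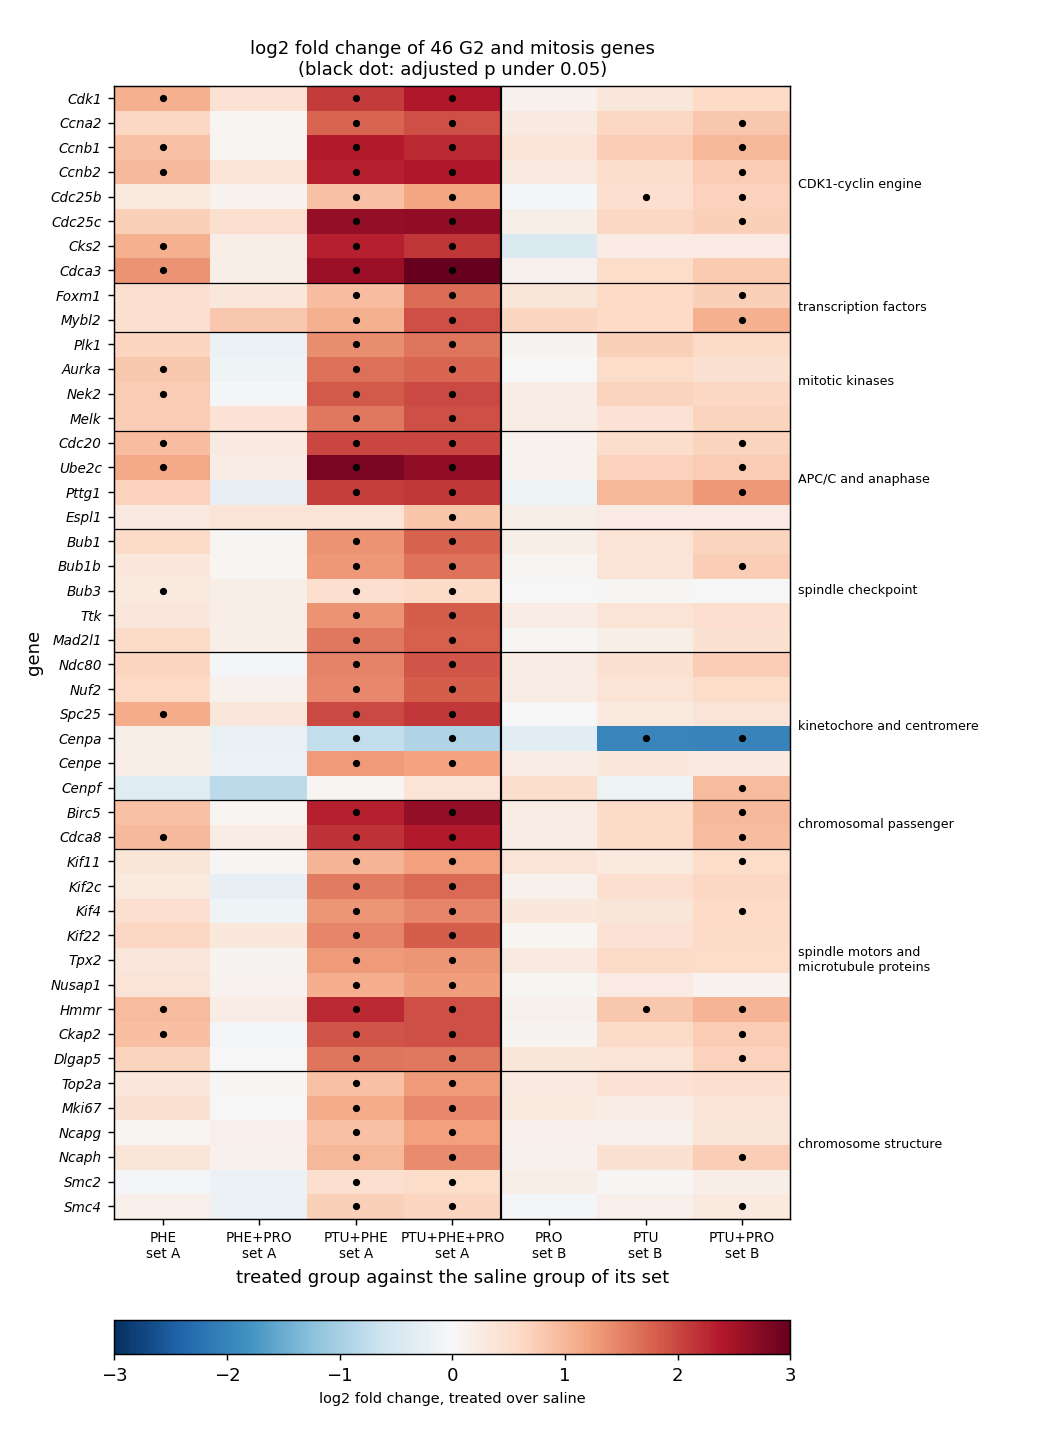
log2 fold change of the 46 genes (rows, grouped by role) against same-set saline hearts, for each of 7 treatments (columns), red for higher and blue for lower in treated hearts. Black dots mark an adjusted p under 0.05; PTU+PHE carries 44 dots and PTU+PHE+PRO 45, PHE+PRO and PRO carry none, and Cenpa is the gene with blue dots.

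Cenpa, the histone H3 variant that marks centromeres, went the other way. In PTU hearts of set B it had 17.6, 17.6 and 18.0 CPM and in PTU+PRO hearts 16.2, 19.0 and 16.7 CPM, against 70.7, 69.3 and 68.5 CPM in saline. In set A it had 30.1, 44.8 and 32.3 CPM in PTU+PHE+PRO and 35.4, 39.4 and 44.6 CPM in PTU+PHE, against 68.2, 66.3 and 64.4 CPM in saline. Every PTU heart of the series was below every heart without PTU in its own set, and the spread within a group was widest in PTU+PHE+PRO, where heart 2 stood above the other 2. Cenpa fell by 1.97 ± 0.12 on the log2 scale with PTU (SE, n = 3 hearts per group, edgeR adjusted p = 5.5e-12), by 2.01 ± 0.12 with PTU+PRO (adjusted p = 3.2e-12), by 0.74 ± 0.11 with PTU+PHE (adjusted p = 8.5e-06) and by 0.89 ± 0.11 with PTU+PHE+PRO (adjusted p = 5.4e-07). It was called in all 6 leave-one-out fits of each of the 4 comparisons. The fall with PTU was 1.07 ± 0.16 smaller (log2) when PHE was present, the only one of the 46 genes for which this interaction across sets was called (edgeR adjusted p = 0.0016, where 1.4% of all genes were called higher and 2.69% lower).

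Cenpa also differed in level. Per kilobase of exon it had 11.3 CPM in saline hearts of set A, the highest of the 46, against 6.10 for Smc4, 5.66 for Bub3, 3.59 for Cdc20 and 1.45 for Cdk1. In PTU+PHE+PRO hearts the highest levels per kilobase were 15.5 CPM for Cks2, 14.5 for Cdc20 and 13.49 for Ccnb2, and Cenpa stood at 6.09. Without PTU, Cenpa had a mean of 12.7 CPM per kilobase in PHE and 9.76 in PHE+PRO, against 11.3 in saline of set A. In set B it had 9.47 in PRO, against 11.9 in saline. None of these differences from saline was called. Bub3, Smc4 and Cenpa, the 3 genes with the highest level per kilobase in saline, were all among the 5 genes with the lowest fold change in PTU+PHE+PRO, together with Cenpf and Smc2.

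Cenpf, a large kinetochore and nuclear matrix protein of G2, was the 1 gene not called in PTU+PHE+PRO. It had 49.6, 30.4 and 47.2 CPM in PTU+PHE+PRO and 32.1, 36.9 and 30.8 CPM in PTU+PHE, against 29.99, 26.8 and 39.1 CPM in saline, so the groups overlapped. Neither difference was called (log2 0.41 ± 0.26, edgeR adjusted p = 0.19, and 0.06 ± 0.26, adjusted p = 0.87). In set B it had 60.9, 37.6 and 64.1 CPM in PTU+PRO, 24.5, 26.8 and 23.7 CPM in PTU and 24.3, 47.3 and 49.7 CPM in PRO, against 25.9, 22.1 and 35.6 CPM in saline. It rose with PTU+PRO (0.96 ± 0.26, edgeR adjusted p = 0.0061), and saline heart 3, low for nearly all other genes, was the highest saline heart for Cenpf in both sets. Pttg1 (securin, the inhibitor of separase) also varied from heart to heart. In set B it had 17.8, 6.29 and 6.13 CPM in PTU+PRO and 4.05, 4.36 and 16.4 CPM in PTU, against 5.39, 4.24 and 2.67 CPM in saline. In each of the 2 treated groups 1 heart stood far above the others, and the log2 change with PTU was 1.01 ± 0.47 (edgeR adjusted p = 0.12) and lay between 0.04 and 1.34 when each library was left out.

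**Figure D3:**
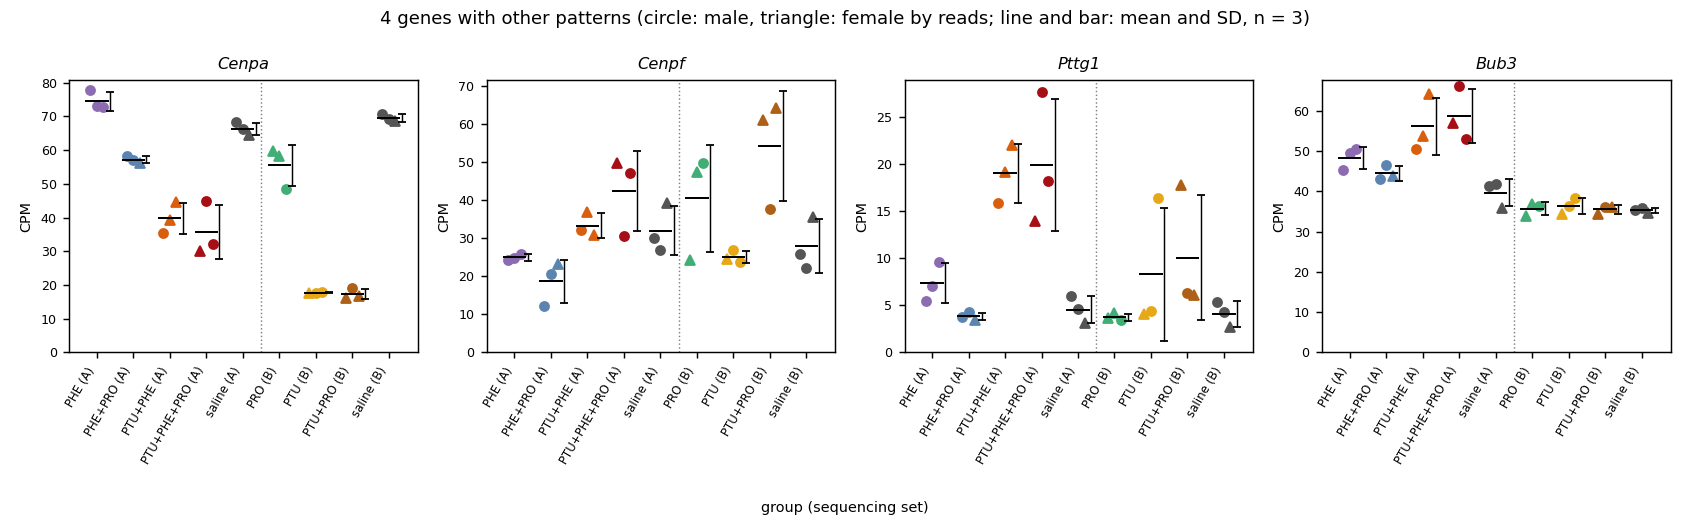
Level of 4 genes with other patterns in every heart, in CPM by group, drawn as in the plot of 8 genes. Cenpa is lower in all PTU groups, Cenpf and Pttg1 scatter within groups, and Bub3 moves between 33.8 and 66.1 CPM.

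PTU without PHE was examined in set B, and few of the genes were called there. In PTU hearts 2 of the 46 were higher (14.3% of all genes tested) and 1 was lower (15.1% of all genes), a smaller share of the 46 called higher than of all genes. The 2 were Cdc25b (log2 0.50 ± 0.11, edgeR adjusted p = 0.0007) and Hmmr (0.81 ± 0.27, adjusted p = 0.024), and the 1 was Cenpa. The median log2 change was 0.44, against 0.01 for all genes, and 18 of the 46 (39.1%) had an unadjusted p under 0.05, a share near the 39.4% of all genes. Cdk1 had 7.96, 8.07 and 9.08 CPM in PTU hearts, against 8.32, 7.26 and 4.38 CPM in saline. The groups overlapped, and the difference of 0.33 ± 0.24 was not called (log2, edgeR adjusted p = 0.34). Mki67 had 24.4, 26.3 and 23.9 CPM in PTU hearts, against 26.8, 25.0 and 11.9 CPM in saline, with a difference of 0.23 ± 0.27 (adjusted p = 0.57, edgeR). All PTU hearts lay between the highest and the lowest saline heart. All PTU hearts were above all saline hearts for 21 of the 46 genes, against 26.9% of all genes. The count called higher was 1 without saline heart 3, PTU heart 2 or PTU heart 3, and 3 and 11 without PTU heart 1 and saline heart 1.

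With PTU+PRO 21 of the 46 genes were higher and 1 was lower, where 17.7% of all genes were called higher and 18.1% lower. The median log2 change was 0.62, against 0.01 for all genes. Both transcription factors and both passengers rose: Foxm1 had 13.1, 13.8 and 9.39 CPM in PTU+PRO, against 9.19, 8.15 and 4.61 CPM in saline (log2 0.72 ± 0.25, edgeR adjusted p = 0.025), and Mybl2 rose by 1.06 ± 0.25 (adjusted p = 0.0017). Ccnb1 had 4.30, 5.25 and 3.84 CPM in PTU+PRO, against 3.17, 2.499 and 1.01 CPM in saline. Its groups did not overlap, and it rose by 1.01 ± 0.30 (adjusted p = 0.0099, edgeR). None of the 4 mitotic kinases was called, and Cdk1 differed by 0.61 ± 0.24 (edgeR adjusted p = 0.055). All PTU+PRO hearts were above all saline hearts for 26 of the 46 genes (28.7% of all genes). The count called higher was 5 without saline heart 3 of set B, 8 without PTU+PRO heart 2 and 11 without PTU+PRO heart 1.

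The blockers were also given without PTU. With PHE 14 of the 46 genes were higher and 0 lower, where 8.14% of all genes were called higher and 6.64% lower, with a median log2 change of 0.59 against 0.01 for all genes. All PHE hearts were above all saline hearts for 21 of the 46 (22.2% of all genes) and below all of them for 1. The 14 called were Cdk1, Ccnb1, Ccnb2, Cks2 and Cdca3 of the Cdk1-cyclin group, and Aurka, Nek2, Cdc20, Ube2c, Bub3, Spc25, Cdca8, Hmmr and Ckap2. Cdk1 had 11.7, 17.6 and 15.7 CPM in PHE hearts, against 9.14, 8.03 and 4.31 CPM in saline. For Cdk1 the groups did not overlap, and the rise was 1.07 ± 0.24 (log2, edgeR adjusted p = 0.01). Ube2c had 8.14, 12.95 and 10.3 CPM in PHE, against 6.03, 5.71 and 2.55 CPM in saline (1.14 ± 0.29, adjusted p = 0.016, edgeR). The count rests on few hearts: it was 1 without saline heart 3, the female heart of its group, where Spc25, a kinetochore protein, was the gene left. It was 3 without PHE heart 2, 2 without PHE heart 3 and 7 without saline heart 2.

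With PHE+PRO 0 of the 46 were called in either direction by edgeR (2.51% of all genes higher, 3.09% lower), 2 had an unadjusted p under 0.05 (22.4% of all genes), and DESeq2 called 1 higher and 1 lower. Cdk1 had 8.54, 10.6 and 9.92 CPM in PHE+PRO hearts, against 9.14, 8.03 and 4.31 CPM in saline, and Mki67 had 27.1, 29.96 and 29.0 CPM, against 36.4, 33.8 and 15.6 CPM. Their values overlapped those of saline. All PHE+PRO hearts were above all saline hearts for 2 of the 46 (14.9% of all genes). They were below all saline hearts for 2 others, among them Cenpf. With PRO alone 0 of the 46 were called by edgeR or DESeq2 (0.167% of all genes higher, 0.105% lower), and 2 had an unadjusted p under 0.05 (8.34% of all genes). All PRO hearts were above all saline hearts for 2 (9.59% of all genes) and below all of them for 1. When PHE+PRO was set against PHE, 6 genes were lower (2.71% of all genes lower, 3.1% higher): Spc25, Aurka, Cenpa, Cdca3, Ckap2 and Cks2. Aurka had 2.92, 2.96 and 2.47 CPM in PHE+PRO hearts, against 4.41, 6.88 and 4.63 CPM in PHE hearts (log2 -0.93 ± 0.27, edgeR adjusted p = 0.043). The median over the 46 was -0.47, and the 6 calls became 0 to 2 when each library was left out.

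PTU was also added to each blocker. In PTU+PHE hearts against PHE hearts 37 of the 46 genes were higher and 1 lower (18.2% and 18.6% of all genes), with a median log2 of 0.87, and the count was 26 without PHE heart 1. In PTU+PHE+PRO against PHE+PRO, 45 were higher and 1 lower, so all 46 genes were called (24.7% of all genes higher, 22.3% lower), with a median of 1.61. There Ccnb1 rose by 2.19 ± 0.30 (edgeR adjusted p = 2.6e-06), and Cenpf, with 49.6, 30.4 and 47.2 CPM against 12.1, 20.6 and 23.1 CPM in PHE+PRO hearts, rose by 1.19 ± 0.27 (adjusted p = 0.00089, edgeR). These 2 comparisons hold no saline heart, and for Cenpf all PHE+PRO hearts lay below all saline hearts of set A. In PTU+PRO against PRO, 8 were higher and 1 lower (15% and 15.2% of all genes), a share near that of all genes, and 1 without PRO heart 3, 3 to 4 without PRO heart 1, PRO heart 2, PTU+PRO heart 1 or PTU+PRO heart 2, and 7 without PTU+PRO heart 3.

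PRO was added to PTU in both sets. In PTU+PHE+PRO against PTU+PHE 0 of the 46 were called by edgeR (1.51% of all genes higher, 1.36% lower), 5 had an unadjusted p under 0.05 (16.4% of all genes) and DESeq2 called 3 higher, with a median log2 of 0.20. In PTU+PRO against PTU 0 were called by edgeR (0.288% of all genes higher, 0.356% lower), 1 had an unadjusted p under 0.05 (9.16% of all genes) and DESeq2 called 1 higher. That gene by edgeR was Cenpf (1.12 ± 0.26, adjusted p = 0.05). The interaction of PTU and PRO in set B was not called for any of the 46 by edgeR or DESeq2 (0.0105% of all genes higher, 0.00523% lower), with 0 at an unadjusted p under 0.05 (5.25% of all genes) and a median of 0.00. The same interaction in the presence of PHE was also not called by edgeR (0.471% of all genes higher, 0.575% lower), but its estimate was above 0 for all 46 genes, 0.19 to 1.60 with a median of 0.67. There 20 of the 46 (43.5%) had an unadjusted p under 0.05, where 14.1% of all genes did, and DESeq2 called 2 higher. Cdk1, with 0.94 ± 0.34, had an edgeR adjusted p of 0.19.

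The question whether PHE and PRO on top of PTU add to the change with PTU alone crosses the sets, and was put as the PTU+PHE+PRO effect minus the PTU effect, each against saline of its own set. The difference was called higher for 36 of the 46 genes (12.6% of all genes higher, 11.6% lower, with 0 of the 46 lower), and the median was 1.22. It was 2.07 ± 0.34 for Cdk1, 1.51 ± 0.41 for Ccnb1 and 1.98 ± 0.40 for Ube2c (log2, edgeR adjusted p = 0.00046, 0.012 and 0.0019). Among the 36 is Cenpa, for which a positive difference of 1.08 ± 0.16 is a smaller fall. Plk1, Pttg1, Espl1, Cenpe, Cenpf, Kif2c, Tpx2, Top2a, Ncapg and Smc2 were not called. The count was 23 without saline heart 3 of set A, 19 without saline heart 1 of set B and 43 with the saline hearts paired by number across sets. Saline of set A against saline of set B gave 0 calls among the 46 by edgeR or DESeq2 (1.45% of all genes higher, 2.8% lower), 0 at an unadjusted p under 0.05 (12.2% of all genes), and a median of 0.11. Same-numbered saline hearts deviated together (correlation of 0.882 to 0.922), and this test treated them as unpaired. If they are the same animals, few calls could arise, so the 0 calls cannot show that the sets are alike. The interaction of PTU with PHE, which asks whether the 2 changes add, had a median of 0.47 and 1 of the 46, Cenpa, was called by edgeR.

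**Figure D4:**
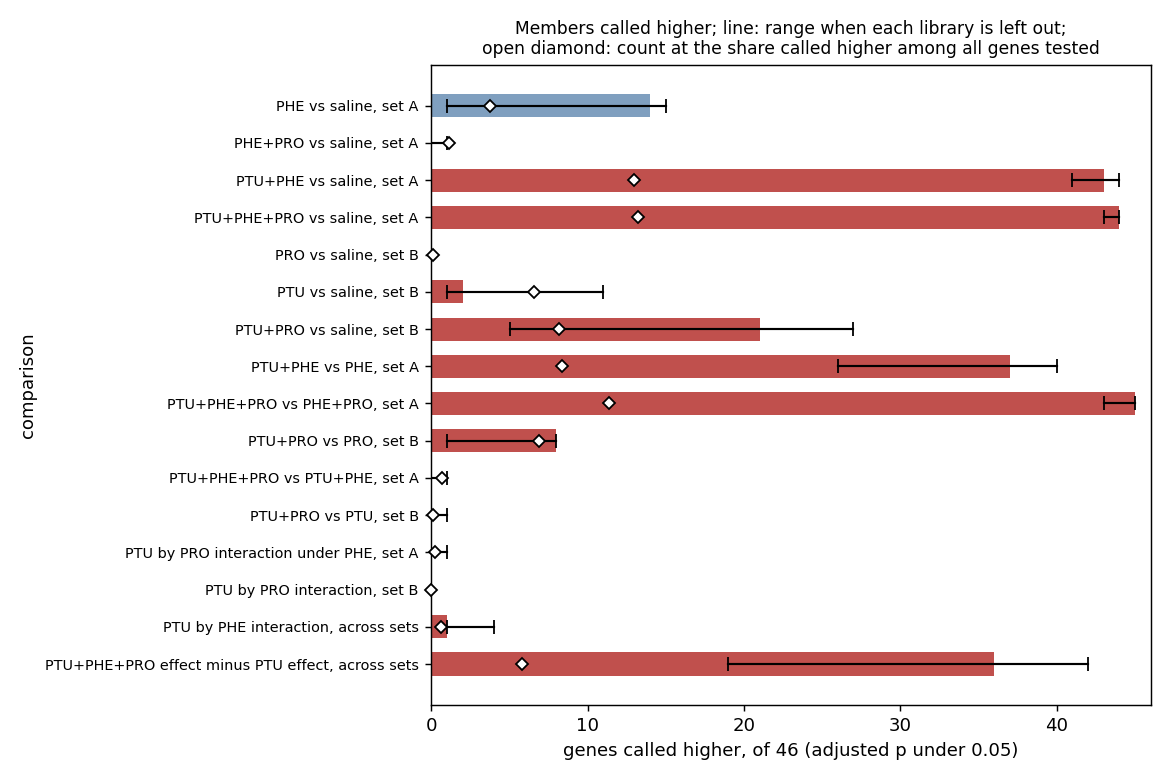
Number of the 46 genes called higher (x axis) in 16 comparisons (y axis), red where PTU is part of the comparison and blue where it is not. Black lines give the range when each library is left out in turn and open diamonds the count at the share called among all genes; PTU+PHE and PTU+PHE+PRO stay at 41 or more, while the lines of PHE and PTU+PRO against saline reach down to 1 and 5.

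Other genes of the cell cycle were counted from lists. Of 66 further mitosis genes 64 were higher and 1 lower in PTU+PHE+PRO and 59 and 1 in PTU+PHE against saline, with medians of 1.52 and 1.24. These are 97.0% and 89.4% of the list called higher, where 28.7% and 28.2% of all genes were. In set B 29 were higher in PTU+PRO (43.9%, where 17.7% of all genes were) and 11 in PTU, with 0 lower. The 11 are 16.7%, a share near the 14.3% of all genes. Racgap1, which directs the cleavage furrow, rose by 2.11 ± 0.22 and 1.85 ± 0.21 in PTU+PHE+PRO and PTU+PHE, and by 0.69 ± 0.21 in PTU (log2, edgeR adjusted p = 3.1e-08, 2.4e-07 and 0.016). Lmnb1, lamin B1 of the nuclear envelope, rose by 1.58 ± 0.16 in PTU+PHE+PRO and 1.06 ± 0.15 in PTU (adjusted p = 1.4e-08 and 8.8e-06, edgeR). Tacc3, Cenph, Cenpw and Hmgb2 rose by 1.76, 2.78, 2.26 and 1.93 in PTU+PHE+PRO.

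Of 30 S phase genes 27 were higher in PTU+PHE+PRO, 25 in PTU+PHE, 25 in PTU+PRO and 5 in PTU, with medians of 1.64, 1.08, 0.99 and 0.40. The shares called higher were 90.0%, 83.3%, 83.3% and 16.7%, the last again near the 14.3% of all genes. In PTU+PRO the share was thus 25 of 30 for S phase genes and 21 of 46 for G2 and mitosis genes, and the difference between these shares was not tested. Tk1, thymidine kinase, rose by 1.93 ± 0.15 in PTU+PHE+PRO and by 1.68 ± 0.15 in PTU (log2, edgeR adjusted p = 4.5e-10 and 9.5e-09), while Cdt1, which licenses replication origins, rose by 2.48 ± 0.25 and 0.72 ± 0.24 (adjusted p = 2.4e-08 and 0.027). Lig1 and Chaf1b rose by 1.95 and 3.12 in PTU+PHE+PRO. Of 12 CDK inhibitors and other brakes 6 were higher and 2 (16.7%) lower in PTU+PHE+PRO. There 28.7% of all genes were called higher and 26% lower, so the share called lower was below that of all genes. In PTU+PHE 8 were higher and 1 lower (28.2% and 25.2% of all genes). In PTU+PRO 3 were higher and 1 lower (17.7% and 18.1% of all genes). In PTU 4 were higher (33.3%, against 14.3% of all genes) and 1 lower (15.1% of all genes). Cdkn1a (p21), an inhibitor of cyclin-dependent kinases, rose in PTU+PHE+PRO (1.55 ± 0.24, edgeR adjusted p = 1.6e-05), in PTU (1.83 ± 0.25, adjusted p = 5.1e-06), where 2 of the 46 were called higher, and in PHE+PRO (1.52 ± 0.24, adjusted p = 0.0012), where 0 of the 46 were called. Cdkn1a also rose in PTU+PHE (1.65 ± 0.24, edgeR adjusted p = 9.4e-06) and PTU+PRO (1.46 ± 0.24, adjusted p = 5.4e-05), where 43 and 21 of the 46 were called higher. Cdkn2c (p18) rose by 1.02 ± 0.11 and Cdkn2d (p19) by 0.74 ± 0.14 in PTU+PHE+PRO, and Rbl1 (p107) by 1.07 ± 0.19. The 2 called lower there were Cdkn1b (log2 -0.60 ± 0.17) and Rbl2 (-0.47 ± 0.13, edgeR adjusted p = 0.0043 and 0.0034).

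Markers of other cells moved as well. The 8 granulocyte markers summed to 22.8 to 79.5 CPM in PTU+PHE+PRO, 41.3 to 99.2 CPM in PTU+PHE, 15.9 to 33.5 CPM in PHE and 8.996 to 19.3 CPM in PHE+PRO, against 2.56 to 6.002 CPM in saline of set A, and to 3.73 to 7.38 CPM in PTU against 2.11 to 3.47 CPM in saline of set B. In PTU+PHE+PRO, PTU+PHE and PHE, 6 of the 8 had all treated hearts above all saline hearts, as did 28.2%, 29.8% and 22.2% of all genes tested. Among the 6 were Ngp and Camp, granule genes of maturing granulocytes. Ngp had a median of 6.37 CPM in PTU+PHE+PRO and 8.04 CPM in PTU+PHE, against 0.740 CPM in saline, and Camp 3.38 and 3.60 CPM, against 0.169 CPM. The other 2, Mpo and Elane, genes of early granulocyte precursors, had few reads and overlapped saline in these 3 treatments. Mpo had 21 reads in the 3 PTU+PHE+PRO libraries, 34 in PTU+PHE and 27 in PHE, against 5 in saline. Elane had 4, 6 and 3, against 1. In PHE+PRO 7 of the 8, Mpo with 15 reads among them, had all treated hearts above all saline hearts (14.9% of all genes). The count was 5 in PTU+PRO (28.7% of all genes), 2 in PTU (26.9%) and 1 in PRO (9.59%).

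Heart muscle markers (6 genes) summed to 36340 to 53510 CPM in PTU+PHE+PRO and 42540 to 45800 CPM in PTU+PHE, against 68840 to 77010 CPM in saline, and to 26280 to 29930 CPM in PTU, against 57070 to 65800 CPM in saline. The 6 went both ways. In PTU+PHE+PRO and PTU+PHE, Myh6, Actc1, Ryr2 and Tnni3 were below saline in all hearts, and Tnnt2 and Myl2 above. Myh6, the alpha myosin heavy chain and a known target of thyroid hormone, differed by more CPM than the sum did (by medians), with 1704 CPM in PTU+PHE+PRO against 33860 CPM in saline.

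Endothelial markers (7 genes) summed to 1062 to 1167 CPM in PTU+PHE+PRO against 1576 to 1635 CPM in saline. There 5 of 7 were below saline in all hearts and Egfl7 and Emcn overlapped, while in PTU+PHE Egfl7 was above. In set B they summed to 1276 to 1383 CPM in PTU, against 1561 to 1591 CPM in saline. There 5 of 7 were below saline in all PTU hearts and 7 of 7 in all PTU+PRO hearts. Fibroblast markers (7 genes) summed to 2120 to 4104 CPM in PTU+PHE+PRO and 2561 to 3375 CPM in PTU+PHE, against 4888 to 5127 CPM in saline. In both, all of them except Tcf21 were below saline in all hearts. In PTU they summed to 5481 to 5882 CPM, against 4903 to 5360 CPM in saline, but went both ways. There Col1a1, Col1a2, Col3a1 and Tcf21 were above saline in all hearts, and Pdgfra, Dcn and Lum were below. Mural markers (6 genes) summed to 976 to 1161 CPM in PTU+PHE+PRO against 1298 to 1461 CPM in saline, but went both ways. There Cspg4 and Tagln were above saline in all hearts, Pdgfrb and Rgs5 were below, and Acta2 and Myh11 overlapped. Macrophage markers (7 genes) summed to 92.8 to 103 CPM in PTU+PHE+PRO against 191 to 220 CPM in saline, with all 7 below saline. All 7 were also below saline in PTU+PHE, PTU and PTU+PRO. In PTU they summed to 80.2 to 86.9 CPM, against 171.6 to 198 CPM in saline of set B. Without PTU, 5 of the 7 were below saline in PHE+PRO and in PRO, and 3 in PHE. Erythroid markers (7 of 8 listed) overlapped, with 1039 to 1292 CPM in PTU+PHE+PRO and 1545 to 2367 CPM in PHE, against 824 to 1566 CPM in saline. The share of all genes with every treated heart below saline was not counted, so the marker counts below saline have no such share beside them. The part of these shifts in the rise of the mitosis genes was not tested.

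Reads also fell differently on long and short genes. The log2 level of long minus short genes, relative to the mean of the libraries, was -0.869 to -0.049 in PTU+PHE+PRO and -0.878 to -0.231 in PTU+PHE, against 0.009 to 0.227 in saline of set A, and 0.426 to 0.486 in PTU against 0.104 to 0.286 in saline of set B. With an offset for gene length 45 genes were higher in PTU+PHE+PRO and 44 in PTU+PHE, so those counts did not fall, and 9 in PHE and 6 in PTU. Exons of 14 of the 46 genes share bases with another gene, 12 of them on the opposite strand. The share was above 10% of exon bases for Ube2c (22.8%, with Tnnc2), Kif4 (15.1%), Ncapg (13.4%), Cdc25c (12.7%) and Ccna2 (12.5%), and since the strand setting of the counting is not given, reads of such partners cannot be told apart. Ccnb1 and Ccnb2 have processed pseudogene copies, which makes their counts uncertain too.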

How the data were processed

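The authors deposited read counts per gene, 1 column per heart; per the submitters' processing notes cutadapt 1.9, STAR 2.5.2b, featureCounts 1.5.1 and build mm10 were used, and per the labels' protocols RNA was taken with Trizol and libraries made with a TruSeq kit. Strand and multimapping settings are not given in the sources used here. Counts were tested as deposited with edgeR 4.0.16 in R 4.3.3 (quasi-likelihood with robust dispersion, TMM scaling, 9 group means over all 27 libraries, 18 residual degrees of freedom), after filterByExpr (minimum count 10, minimum total 15) left 19119 genes. In all, 18 comparisons were made; p-values were adjusted by Benjamini-Hochberg over all genes within each, and a call is an adjusted p under 0.05. Standard errors come from the log2 fold change and its F value. Both hearts with the shared header were used. Gene models were GENCODE vM21 and promoters RefSeq, both of GRCm38, the assembly that mm10 names. Alternatives were DESeq2 1.42.0, RLE size factors, no filter, sex, gene length, fewer groups, the replicate number as a block, and leaving out each library. The edgeR script was tested on simulated data. Every one of the 46 genes could be named. Values of each heart are given for 14 genes fixed by role and for those not called, or called against the majority, in PTU+PHE+PRO; Bub3, Espl1, Pttg1 and Spc25 were added after their values were seen, as were the genes named in the other comparisons. From the other lists those with the smallest p in PTU+PHE+PRO are named (6 mitosis, 4 S phase, 4 inhibitors). The 2 inhibitors or brakes called lower there were added after their values were seen. The members and lists were chosen with earlier results of these data known.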

Additional observations from a re-analysis of the deposited data

Results flagged for a closer look

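The fall of Cenpa with PTU differed by whether PHE was present: the PTU effect with PHE minus the PTU effect without PHE was 1.07 on the log2 scale (edgeR interaction across sets, adjusted p = 0.0016, called in 12 of 12 fits that left out a library). In set A the fall was measured against PHE hearts and in set B against saline hearts, so the sequencing sets enter the contrast; 3 of 3 PTU+PHE hearts lay below all PHE hearts and 3 of 3 PTU hearts below all saline hearts.

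The effect of PTU+PHE+PRO against saline of set A exceeded the effect of PTU against saline of set B for 36 of the 46 genes by edgeR. Of all genes tested, 12.6% were called higher and 11.6% lower. The count of 36 became 19 to 42 when each library was left out, the lowest without saline heart 1 of set B. The 2 effects were measured in different sets.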

How the results depend on the processing

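Counts of genes called higher in PTU+PHE+PRO and PTU+PHE against saline, and with PTU added to PHE or to PHE+PRO, stayed within 1.5 times their value under every alternative run. The other counts moved, and the causes were not tested. For PHE the 14 became 9 with a gene length offset, 1 with the sets fitted alone and 7 with only the groups compared, and 1 to 15 when each library was left out. For PHE+PRO the 0 became 1 without a filter, with sex as a covariate or with DESeq2, and 0 to 1 over libraries left out. For PTU the 2 became 5 without a filter, 11 with sex, 6 with gene length, 9 with the sets alone, 4 with the groups alone and 7 with DESeq2, and 1 to 11 over libraries. For PTU+PRO the 21 became 33 with sex and 10 with the groups alone, and 5 to 27 over libraries. For PTU+PRO against PRO the 8 became 21 with the groups alone, and 1 to 19 over libraries, the highest without saline heart 3 of both sets, a fit added after seeing the data. For PTU+PHE+PRO against PTU+PHE the 0 became 1 with RLE factors, no filter or gene length and 3 with DESeq2, and 0 to 1 over libraries. For PTU+PRO against PTU it became 1 with RLE factors, gene length, the groups alone or DESeq2, and 0 to 1 over libraries. For PTU by PRO under PHE the 0 became 2 with DESeq2 and 0 to 1 when each library was left out. It reached 3 in the added fit without saline heart 3 of both sets. For PTU by PHE the 1 became 2 without a filter or with the groups alone, 3 with gene length and 4 with sex or DESeq2. It was 1 to 4 when each library was left out, and 9 in the added fit without saline heart 3 of both sets. For the PTU+PHE+PRO effect minus the PTU effect the 36 became 24 with the groups alone, and 19 to 42 over libraries. The 6 genes lower in PHE+PRO against PHE became 1 with sex or gene length, 0 with the sets alone and 13 with DESeq2.

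The replicate numbers do not pair hearts within a set: 13 of 40 same-numbered pairs had a correlation of deviations over 0.1 (-0.538 to 0.417). With the replicate block 5 genes were higher in PTU, 4 in PTU+PRO against PRO, and 0 were lower in PHE+PRO against PHE. The saline hearts paired by number across sets, added after seeing the data, gave 43 for the PTU+PHE+PRO effect minus the PTU effect.

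Of 227 calls of single genes followed, 0 reversed direction. The call was lost in 119 of 1816 values under a single setting. It was lost in 229 of 1589 values with a library, or saline heart 3 of both sets, left out. The smallest difference that 3 hearts per group can show was not tested.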
